A study of Homo sapiens with 2 samples.

Results

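Solute carriers are membrane proteins that move sugars, amino acids, nucleosides, metals, ions, vitamins and metabolites across the plasma membrane and the membranes of organelles. Their gene symbols start with SLC and a family number. The genes described here are those with such a symbol, read by probe sets annotated to 1 gene only, whose higher signal of the 2 arrays was at least 200 on any of those probe sets. Of 376 genes with an SLC symbol and a probe set of their own, noncoding transcripts and pseudogenes among them, 161 met this rule. They were among 9530 genes of any name that reached the same signal. These 161 genes were thus selected on the higher of their 2 signals, so the ratios below are descriptions without a test. Of the 161 genes, 5 are not carriers in spite of their symbols. SLC2A4RG, SLC4A1AP and SLC7A6OS, which lies opposite SLC7A6, encode other proteins. SLC12A2-DT is a noncoding transcript and SLC71A3P a pseudogene.

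The arrays measured RNA from PC-3, an established human prostate cancer line derived from a bone metastasis. The control shRNA cells (siCONTROL) had received a control short hairpin RNA vector, and the SHISA2 shRNA cells (siSHISA2) a vector against SHISA2. Both vectors were transfected into the same line, and the labels do not say whether the cells were pools or clones or at what time RNA was taken. There was 1 array per group, so no difference was tested, and precision is limited by that number of arrays. Every ratio is SHISA2 shRNA over control shRNA on the log2 scale. The signal of SHISA2 itself was 3536 with control shRNA and 1506 with SHISA2 shRNA, 42.6% of the control. Keratins of simple epithelium were present (KRT18 at 18340 and 17533, KRT8 at 2283 and 1990, in the same order). KLK3, an androgen-driven gene, read 242.3 and 251.0 on an _x_at probe set, and KRT19 and CDH1 were under the floor of 47.9, the median of all signals. Of other cell types, none of the 4 leukocyte or 2 red cell markers with a probe set reached 200, while CDH5 of the endothelial markers (155.9 and 261.5) and COL1A1 of the fibroblast markers (787.2 and 577.0) did. The summed signal was 168.8 and 256.0 for leukocyte, 279.7 and 400.4 for endothelial, 861.2 and 691.8 for fibroblast, and 165.4 and 120.0 for red cell markers. The part of these signals in the values below was not tested. In RNA from a whole culture, fewer cells with a transcript and less transcript per cell cannot be told apart.

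Carriers work as importers, exporters or exchangers, and their direction follows from the gradient they are coupled to. Glucose enters most cells through the GLUT proteins of family 2, which need no ion gradient, and large neutral amino acids through exchangers made of a heavy chain of family 3 and a light chain of family 7. Zinc is brought into the cytosol by the ZIP proteins of family 39 and taken out of it by the ZnT proteins of family 30, a balance for which prostate epithelium is known. Most members of family 25 serve the inner mitochondrial membrane, and family 35 serves mainly the Golgi apparatus. A signal depends on the probe set as well as on the transcript, so signals are compared between arrays and not between genes.

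The carriers differed little between the arrays. At least 1.5-fold higher with SHISA2 shRNA were 4 of the 161 genes (2.48%), beside 2.07% of all genes reaching the same signal, and at least 1.5-fold lower were another 4 (2.48%), beside 2.60% of all genes. At least 2-fold higher was 1 SLC gene, SLC2A1 (all genes 0.336%), and at least 2-fold lower 1, SLC14A1 (all genes 0.262%). These shares were near the background. Median centring, 1 of the 3 other scalings tried, added 0.12 to the log2 ratio of every gene, and so to the median of every class and list. After it 6805 of all 9530 genes were above 0 and 28.6% were below. Counts above or below 0 after median centring are to be read beside these. The median log2 ratio of the 161 genes was -0.02 (SD 0.29 across genes), and that of all genes 0.00 (SD 0.27). Below 0 were 88 of the 161 genes (54.7%), beside 49.9% of all genes. Within 0.2 of 0 were 99 (61.5%), beside 64.6% of all genes.

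All 8 genes past 1.5-fold had signals of at most 494.6. Of the 34 genes whose higher signal was from 200 to under 400, 4 were past 1.5-fold (11.8%), as were 12.7% of all genes in that range. From 400 to under 1000 it was 4 of 50 (8%), beside 5.86% of all genes. Of the 77 with a signal of 1000 or more none was past it, beside 1.89% of all genes. Both signals reached 1000 in 72 genes, whose ratios ran from -0.50 to 0.30. As a measure of technical spread, the difference in log2 ratio between the 2 brightest probe sets of a gene had an SD, divided by the square root of 2, of 0.25 over 66 SLC genes and 0.20 over 4129 genes of any name. It leaves out variation between cultures and arrays.

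**Figure D1:**
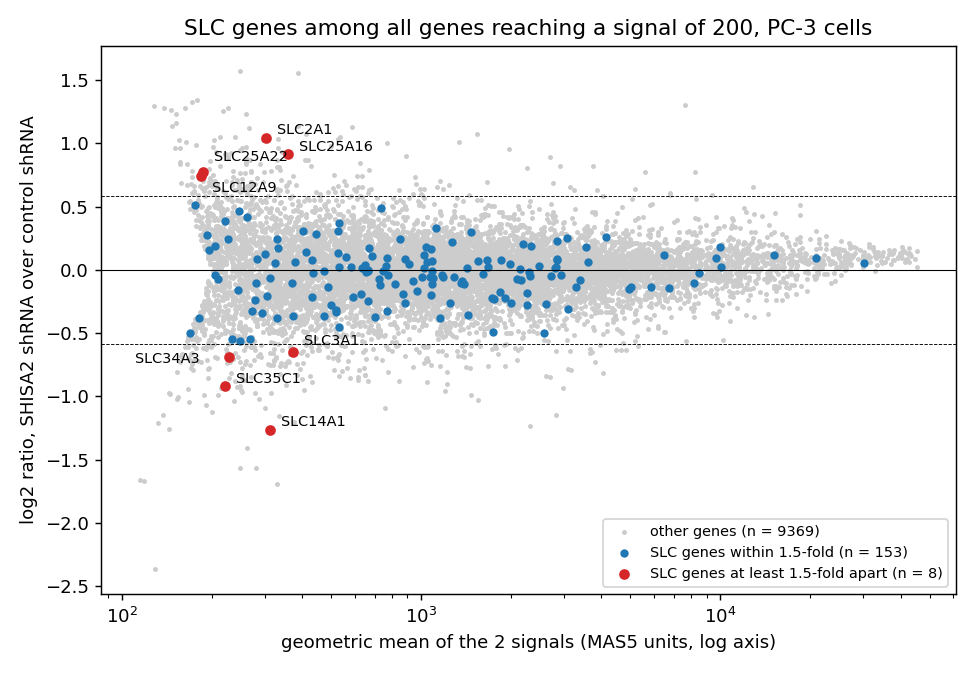
Log2 ratio of SHISA2 shRNA over control shRNA (vertical axis) against the geometric mean of both signals in MAS5 units (log axis), 1 point per gene: 9369 other genes in grey, 153 SLC genes within 1.5-fold in blue and 8 SLC genes at least 1.5-fold apart in red. Dashed lines mark 1.5-fold, and the red points all lie among the dimmer genes.

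Sequence upstream of the start site is shown for the carriers at both ends of the ratios, SLC2A1 and SLC14A1, and for SLC30A1, the zinc exporter of the plasma membrane and a known target of the metal-sensing factor MTF1. The 250 bases before each RefSeq start (GRCh38.p14) are given 5′ to 3′, with a match to a searched motif in capitals.
SLC2A1 (chr1:42958869-42959118, - strand): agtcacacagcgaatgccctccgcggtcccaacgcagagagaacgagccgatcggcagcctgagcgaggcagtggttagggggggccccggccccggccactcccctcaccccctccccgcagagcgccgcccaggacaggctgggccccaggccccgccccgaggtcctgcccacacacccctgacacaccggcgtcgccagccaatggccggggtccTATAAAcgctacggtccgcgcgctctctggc
SLC14A1 (chr18:45723931-45724180, + strand): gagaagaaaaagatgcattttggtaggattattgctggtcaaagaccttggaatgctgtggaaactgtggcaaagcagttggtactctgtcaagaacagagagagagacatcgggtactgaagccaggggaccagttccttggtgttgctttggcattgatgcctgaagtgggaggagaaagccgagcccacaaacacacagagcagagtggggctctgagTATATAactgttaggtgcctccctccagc
SLC30A1 (chr1:211579162-211579411, - strand): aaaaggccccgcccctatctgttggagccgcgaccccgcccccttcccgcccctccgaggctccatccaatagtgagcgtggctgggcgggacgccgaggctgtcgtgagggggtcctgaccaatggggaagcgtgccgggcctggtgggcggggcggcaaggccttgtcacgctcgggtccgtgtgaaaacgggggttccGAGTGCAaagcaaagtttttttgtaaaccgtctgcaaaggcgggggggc
The capitals mark a TATA box core (TATANA) that begins 31 bases before the start of SLC2A1 and 29 before that of SLC14A1, and a metal response element (TGCACNC or TGCGCNC) that begins 49 bases before the start of SLC30A1. Both strands were searched, and matches of different motifs may overlap. A promoter was listed for 137 of the 161 genes. The TATA core was in 10 of them (7.30%) and in 17.7% of all 35116 promoters of that length, and the metal response element in 42 (30.7%) and in 24.8%. The core of the hypoxia response element (ACGTG) was in 32 (23.4%) and in 18.5%, and the core of the amino acid response element (TGATGNAA) in 1 (0.730%) and in 3.14%. Neither of the last 2 was in the windows of the 6 genes past 1.5-fold that have a listed promoter. The TATA core was searched after these sequences were seen. A match describes letters in this window and not a bound factor.

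Urea transport was represented by 1 gene, and it had the lowest ratio of all 161. SLC14A1, the urea transporter UT-B that also carries the Kidd blood group, read 484.0 with control shRNA and 201.4 with SHISA2 shRNA, a log2 ratio of -1.26. Its other probe set read 438.3 and 123.3, a ratio of -1.83, so both were lower with SHISA2 shRNA. SLC14A2, the kidney urea transporter, was under the floor in both arrays (3.9 and 21.9). Of 13 genes of the urea cycle and of arginine and polyamine metabolism, 8 reached 200. None of them was past 1.5-fold, and their median was 0.08. ASL, argininosuccinate lyase, was the largest in size at -0.38, followed by SAT1 (0.17) and SRM (0.16) of polyamine metabolism. The red cell markers, from a cell type that also carries SLC14A1, were at most 153.8.

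In the sugar class, SLC2A1 stood apart from the other 9 genes. SLC2A1 encodes GLUT1, the basal glucose transporter of most cells. It read 211.5 with control shRNA and 436.5 with SHISA2 shRNA, 2.06-fold higher. This rests on 1 probe set of the _s_at kind, which can share probes with other transcripts, and the other probe set of the gene was under the floor in both arrays (29.9 and 3.6). The remaining ratios ran from -0.06 to 0.41. SLC45A4, a proton-coupled sugar transporter, read 226.5 and 301.9 (0.41), and SLC2A11, another GLUT, 175.3 and 212.4 (0.28, and 0.52 on its other probe set). SLC45A3, the prostate protein prostein, read 208.9 and 247.5 (0.24). The inositol carriers SLC5A3 (0.09) and SLC2A13 (-0.06), the multivitamin carrier SLC5A6 (0.01), SLC2A6 (0.07), SLC2A8 (0.06) and SLC50A1 (-0.04) were close to 0. As deposited 8 of 10 were above 0, with a median of 0.08. After median centring all 10 were above 0, beside 6805 of all 9530 genes. SLC2A3, the high-affinity GLUT3, stayed under the rule at 136.8 and 138.9.

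Among regulators of carriers, TXNIP and ARRDC4 are glucose-induced arrestins that remove GLUT1 from the cell surface. TXNIP read 4865 and 6940 (0.51), with 0.30 and 0.36 on its other probe sets, and ARRDC4 1396 and 1994 (0.51). ARRDC3, of the same arrestin family, read 5469 and 3905 (-0.49). Of the 24 accessory subunits and regulators listed, 17 reached 200, with 1 of them past 1.5-fold higher (all genes 2.07%), none lower and a median of -0.06. After median centring the median was 0.06, with 3 of the 17 past 1.5-fold higher (TXNIP, ARRDC4 and PDZK1IP1), beside 355 of all 9530 genes. The gene past it as deposited was PDZK1IP1, an accessory subunit of the kidney glucose carrier SLC5A2, at 144.0 and 428.2 (1.57, and 1.15 on its other probe set). SLC5A2 itself was under the floor.

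Amino acid carriers lay on both sides of 0, with 10 of 19 above 0 and a median of 0.01 as deposited. The median was -0.01 after quantile normalization and after a lowess trend was removed. After median centring it was 0.14, with 13 of 19 above 0 (6805 of all 9530 genes) and 1 past 1.5-fold higher (355 of all genes). The heavy chains of family 3 were on opposite sides. SLC3A1, the heavy chain rBAT of cystine and dibasic amino acid transport, read 467.2 and 298.0 (-0.65) on an _s_at probe set, while its other 2 probe sets were under the floor in both arrays. SLC7A9, its light chain in kidney, was also under the floor (15.1 and 10.9). SLC3A2, the heavy chain CD98 shared by most exchangers, read 3796 and 4543 (0.26). Its light chains were SLC7A5 (LAT1, 9362 and 9980, ratio 0.09), the cystine/glutamate exchanger SLC7A11 (3345 and 3797, 0.18, and 0.11 on its other probe set) and SLC7A6 (-0.19, with 0.22 and 0.36 on its other probe sets).

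The sodium-coupled carriers of family 38 were nearly level. SLC38A2, which is induced when amino acids run short, read 29734 and 30812 (0.05, with -0.03 and -0.01 on its other probe sets), and SLC38A1 9961 and 10129 (0.02). The lysosomal arginine sensor SLC38A9 had a ratio of 0.01. SLC38A12, listed earlier as TMEM104, was the farthest of the family at 209.8 and 289.2 (0.46). Glutamine carrier SLC1A5 read 579.4 and 589.2 (0.02). SLC6A6, the taurine transporter, read 3060 and 2170 (-0.50), the lowest ratio among the 72 genes with both signals of 1000 or more. Its other probe set above the floor had a ratio of -0.13 at signals of 61.9 and 56.4. Of the enzymes of glutathione and glutamine metabolism, 9 of 11 reached 200 and none was past 1.5-fold. GCLM, the regulatory subunit of the first enzyme of glutathione synthesis, read 9638 and 12669 (0.39), with 0.17 and 0.32 on its other probe sets. CBS (0.17) and GLUL (-0.15) came next.

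Family 25 was the largest class, with 31 genes, a median of 0.04 and 17 above 0. After median centring 24 were above 0, beside 6805 of all 9530 genes. Most of its members are carriers of the inner mitochondrial membrane, but SLC25A17 (-0.12) is a carrier of peroxisomes. Within 0.2 of 0 were 23 of them. They included the ADP/ATP exchanger SLC25A5 (0.12) and the phosphate carrier SLC25A3 (20110 and 21502, 0.10). The citrate carrier SLC25A1 (0.05), the oxoglutarate carrier SLC25A11 (-0.19) and the aspartate/glutamate carriers SLC25A12 (0.17) and SLC25A13 (-0.11, and 0.24 on its other probe set) belonged to them too. Another ADP/ATP exchanger, SLC25A4, lay outside that range at -0.23. At least 1.5-fold higher were 2 of the 31 (all genes 2.07%). SLC25A22, a glutamate carrier, read 143.3 and 244.6 (0.77) on its only probe set. SLC25A16, a carrier linked to coenzyme A, read 262.7 and 494.6 (0.91) on an _x_at probe set, which can share probes with other transcripts. Another probe set of SLC25A16 read the other way, 394.4 and 292.0 (-0.43), so that the direction of this gene depends on the probe set. SLC25A37, the iron importer mitoferrin-1, differed less but on every probe set that reached 200: 6 probe sets had ratios from 0.20 to 0.33. SLC25A28, mitoferrin-2, had a ratio of -0.06. SLC25A44, a carrier of branched-chain amino acids, was lowest in the class at -0.28, with 0.19 on its other probe set.

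Zinc transporters were mostly a little below 0 as deposited. Of 17 genes 12 were below 0, with a median of -0.05, and none was past 1.5-fold. After median centring 5 of 17 were below 0, beside 28.6% of all genes, and SLC39A4 was past 1.5-fold. After quantile normalization 11 of 17 were below 0, and after a lowess trend was removed 12 of 17. The side of 0 thus turned with median centring only. All 6 exporters of family 30 lay between -0.23 (SLC30A9) and -0.04 (SLC30A7) as deposited. SLC30A1 read 2224 and 2106 (-0.08, and -0.06 on its other probe set). The 11 importers of family 39 spread wider, from -0.37 to 0.49. SLC39A4, the intestinal zinc importer, read 618.4 and 868.2 (0.49) on 1 probe set, SLC39A8, which also takes up cadmium and manganese, 798.0 and 615.9 (-0.37), and SLC39A10 3436 and 2779 (-0.31). SLC39A6 was lower on all 4 of its probe sets that reached 200 (6165 and 5622 on the brightest, ratios from -0.58 to -0.13). SLC39A14 read 8540 and 8397 (-0.02). Metallothioneins, which bind zinc and are induced by it through MTF1, had ratios of 0.09 to 0.24 for the 6 of 9 that reached 200. Their median was 0.18 as deposited, 0.30 after median centring, 0.10 after a lowess trend was removed and 0.08 after quantile normalization. MT1F (0.24), MT1G (0.22) and MT1E (0.18) were largest, all on _x_at probe sets, and MTF1 had a ratio of -0.03.

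Other metals were read by 6 genes with a median of 0.09, none past 1.5-fold. SLC31A1, the copper importer CTR1, read 1325 and 1632 (0.30), with -0.01 on its other probe set. The magnesium transporters SLC41A1 (996.0 and 1255, 0.33), SLC41A3 (0.11) and SLC41A2 (420.0 and 444.1, 0.08) were all above 0 as deposited and under each of the 3 other scalings. A dimmer probe set of SLC41A2 had a ratio of 0.74, at 242.9 and 405.4. The iron importer SLC11A2 (DMT1) had a ratio of -0.06, and SLC40A1, the iron exporter ferroportin, did not reach 200 (108.1 and 67).

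Carriers classed under the Golgi and endoplasmic reticulum numbered 24, with 15 below 0 and a median of -0.05. After median centring 10 of the 24 carriers were below 0, beside 28.6% of all genes. Only some of them supply glycosylation with nucleotide sugars. SLC35C1, which brings GDP-fucose into the Golgi for fucosylation, read 305.4 and 161.2 (-0.92). Its other probe set read the other way, 162.4 and 221.2 (0.45). SLC35E3 followed at 621.8 and 454.2 (-0.45), and SLC35G1 at 377.7 and 290.0 (-0.38, with 0.09 and 0.27 on its other probe sets). SLC35B4, a carrier of UDP-xylose and UDP-N-acetylglucosamine, was lower on both probe sets (-0.36 and -0.65). The CMP-sialic acid carrier SLC35A1 (-0.05), the UDP-galactose carrier SLC35A2 (0.23) and the UDP-N-acetylglucosamine carrier SLC35A3 (0.12) lay on either side of 0. SLC35F5 read 9336 and 10580 (0.18) on its brightest probe set, but 5080 and 4361 (-0.22) on another and -0.003 on a dimmer one. The acetyl-CoA carrier SLC33A1 had a ratio of 0.01, and SLC37A4, the glucose 6-phosphate carrier, -0.24.

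**Figure D2:**
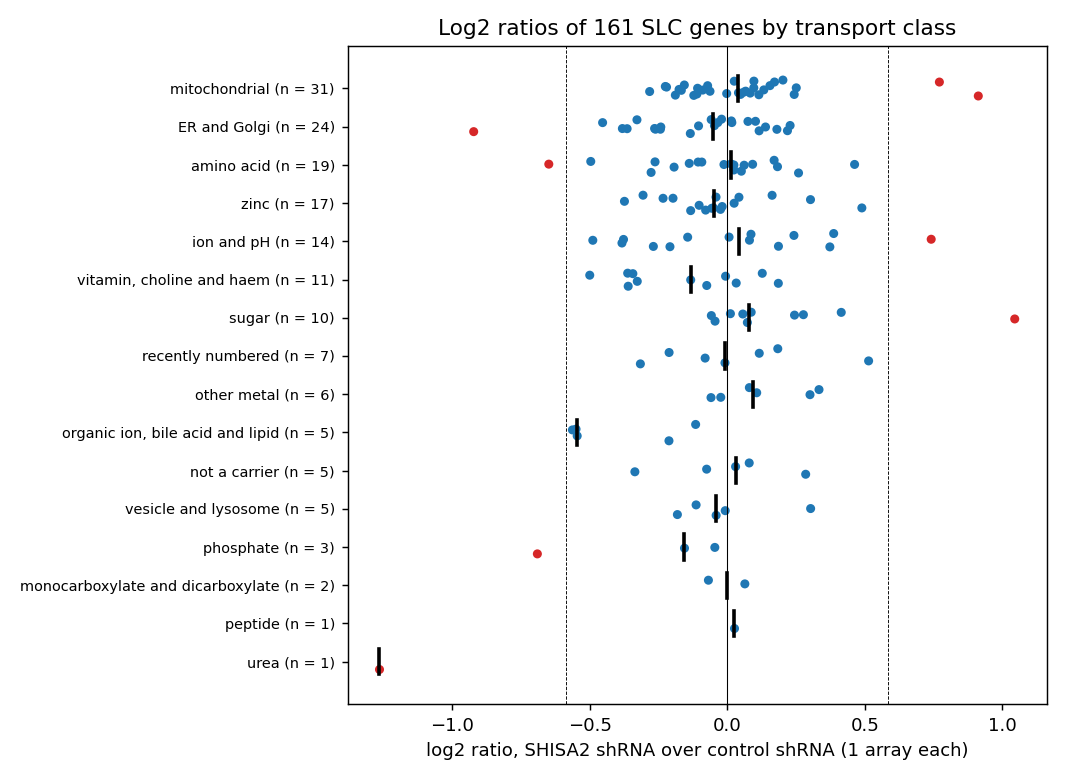
Log2 ratios of all 161 SLC genes (horizontal axis, SHISA2 shRNA over control shRNA, 1 array each) by transport class, 1 point per gene, with family 25 as the mitochondrial class, the class median as a black bar and 1.5-fold as dashed lines. Most points lie near 0, and the 8 red points past 1.5-fold fall in 7 classes.

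Choline transporter-like genes all had ratios below 0. The 4 members of family 44 that reached 200 had ratios between -0.50 and -0.33, with a median of -0.36, and all 4 stayed below 0 under the 3 other scalings (medians of -0.35 to -0.24). None was past 1.5-fold. SLC44A1, the choline transporter of the plasma membrane and mitochondria, read 1621 and 1263 (-0.36), and its other 5 probe sets, all above the floor, had ratios of -0.54 to -0.17. SLC44A2 read 200.8 and 142.0 (-0.50, and -0.41 on its dimmer probe set), SLC44A3 306.1 and 244.0 (-0.33) and SLC44A5 424.1 and 330.0 (-0.36). SLC44A5 also had dim probe sets at -0.42 and 0.16. Of the vitamin and haem carriers, the intestinal folate carrier SLC46A1 read 331.2 and 261.1 (-0.34) and the reduced folate carrier SLC19A1 512.8 and 467.7 (-0.13). The thiamine carrier SLC19A2 (-0.07), the ascorbate carrier SLC23A2 (0.13) and SLC49A4 (-0.01) lay closer to 0 than SLC46A1. So did the brightest probe sets of the haem carrier SLC48A1 (0.03) and the riboflavin carrier SLC52A2 (0.19). Their other probe sets that reached 200 had ratios of 0.33 and 0.36, in the same order.

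Carriers of lipids and organic ions were all below 0 as deposited, with a median of -0.55 over 5 genes. SLC27A1 (301.2 and 203.9, -0.56) and SLC27A4 (281.4 and 192.8, -0.55), fatty acid transport proteins that also join fatty acids to coenzyme A, had 1 probe set each. SLC10A7, a regulator of cellular calcium, read 325.7 and 222.5 (-0.55). The carnitine carrier SLC22A5 (-0.21) and SLC10A3 (-0.11) were nearer to 0. None of the 5 was past 1.5-fold, and the 3 lowest had signals of at most 325.7. After median centring 4 of 5 were below 0, beside 28.6% of all genes.

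Among carriers of ions and protons, 8 of 14 were above 0, with a median of 0.04. The chloride cotransporters of family 12 lay on both sides. SLC12A2, the sodium-potassium-chloride cotransporter NKCC1, read 2059 and 1467 (-0.49), with -0.04 on its other probe set at 448.5 and 437.7. STK39, the kinase SPAK that activates NKCC1, read 2280 and 1612 (-0.50), while the related OXSR1 (-0.18) and their activator WNK1 (-0.06) were closer to 0. SLC12A9, an orphan of the family, read 142.7 and 238.6 (0.74), and its other probe sets were near or under the floor (0.13 at 46 and 52.5). The potassium-chloride cotransporters SLC12A4 (0.37) and SLC12A7 (0.08) were above 0. SLC9B2, a sodium/proton exchanger, read 194.0 and 253.7 (0.39). SLC26A2, a sulfate transporter, read 1324 and 1016 (-0.38, with -0.38 and -0.17 on its other probe sets). The bicarbonate transporter SLC4A7 read 7096 and 6423 (-0.14), with 0.25 and -0.38 on its other probe sets that reached 200. SLC4A2, another bicarbonate transporter, had a ratio of 0.24. SLC8B1, the mitochondrial sodium/calcium exchanger, read 206.5 and 159.0 (-0.38). The sodium and proton pumps that set the gradients for these carriers had 15 of 20 genes at 200 or more. Their median was 0.06, with none past 1.5-fold higher and 1 lower (all genes 2.60%), ATP6AP1, an accessory subunit of the proton pump, at 4854 and 3217 (-0.59). ATP6AP1 was within 1.5-fold after median centring (-0.47) and after quantile normalization (-0.58). ATP6V1C1 (0.23) and ATP6V0D1 (0.18) came next in size.

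Phosphate carriers numbered 3. SLC34A3, the renal carrier NaPi-IIc, read 289.0 and 179.1 (-0.69), and its other probe set was under the floor in both arrays. SLC20A1 read 5222 and 4689 (-0.16) and SLC20A2 207.9 and 201.5 (-0.05). The lysosomal and vesicular carriers were near 0, with sialin, SLC17A5, at -0.18 (-0.26 on its other probe set), SLC18B1 at -0.11 and the lysosomal exporter of cationic amino acids, SLC66A1, at 0.30 (-0.01 on its other probe set). The peptide carrier SLC15A4 had a ratio of 0.02. The monocarboxylate family was represented by SLC16A5 (0.06) and SLC16A9 (-0.07). The lactate carriers SLC16A1 and SLC16A3 are not listed in the annotation used here and were not analysed. Basigin, BSG, the chaperone of those lactate carriers, read 1819 and 1713 (-0.09), and embigin, EMB, another such chaperone, 2938 and 2293 (-0.36).

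Among 7 genes of recently numbered families, the ratios ran from -0.32 (SLC75A1, earlier MFSD10) to 0.51 (SLC60A2, earlier MFSD4B, 147.4 and 210.5). A dimmer probe set of SLC60A2 had a ratio of -1.01. SLC71A1 had a ratio of 0.12. SLC67A2 was at -0.21, with 0.00 on its other probe set. The 5 genes that are not carriers ran from -0.34 (SLC2A4RG, with 0.39 on its other probe set) to 0.29 (SLC71A3P), with SLC4A1AP at 0.08. Carriers named otherwise, such as the mitochondrial pyruvate carrier and the uncoupling proteins, reached 200 for 19 of 36 genes, with a median of -0.05. Past 1.5-fold were 1 higher (all genes 2.07%) and 1 lower (all genes 2.60%). SPNS2, the exporter of sphingosine 1-phosphate, read 232.8 and 377.0 (0.70), and UCP2, a family 25 protein of the inner mitochondrial membrane, 717.1 and 413.0 (-0.80, with 0.20 on its dimmer probe set). The cystine exporter CTNS followed at 0.43. Of 23 ABC transporters, pumps driven by ATP, 14 reached 200 and none was past 1.5-fold, with ABCB10 at -0.37, the drug pump ABCB1 at 0.30 and ABCD4 at 0.27. The only aquaporin of 8 to reach 200 was AQP3 (0.30).

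Nucleoside carriers gave no member. The 4 equilibrative genes on the array had at most 166.1, with SLC29A1 at 166.1 and 154.7 and SLC29A2 at 146.8 and 155.3, and the 3 concentrative genes of family 28 were under the floor. Of 14 nucleoside salvage genes 12 reached 200, with a median of 0.08 and none past 1.5-fold. APRT, which salvages adenine, had a ratio of 0.41, PNP, the purine nucleoside phosphorylase, 0.28 and deoxycytidine kinase, DCK, -0.28. Of the 215 SLC genes that missed the rule, 135 had no signal above the floor. The 215 were counted by symbol and include antisense transcripts and pseudogenes, such as SLC14A2-AS1 and SLC25A3P1. Just outside the minimum were SLC27A2 (150.4 and 184.7), SLC25A10 (181.3 and 149.3) and SLC27A5 (180.4 and 168.9), and just inside it SLC44A2 (200.8 and 142.0), SLC8B1 (206.5 and 159.0) and SLC25A51 (185.6 and 206.7).

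Agreement between probe sets varied. Of the 161 genes, 95 were read by 1 probe set that reached 200 and 66 by several. In 37 of the 66 every other probe set had the sign of the brightest one. Among the 8 genes past 1.5-fold, 3 had another probe set that reached 200. It agreed in sign for SLC14A1 and was opposite for SLC25A16 and SLC35C1.

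**Figure D3:**
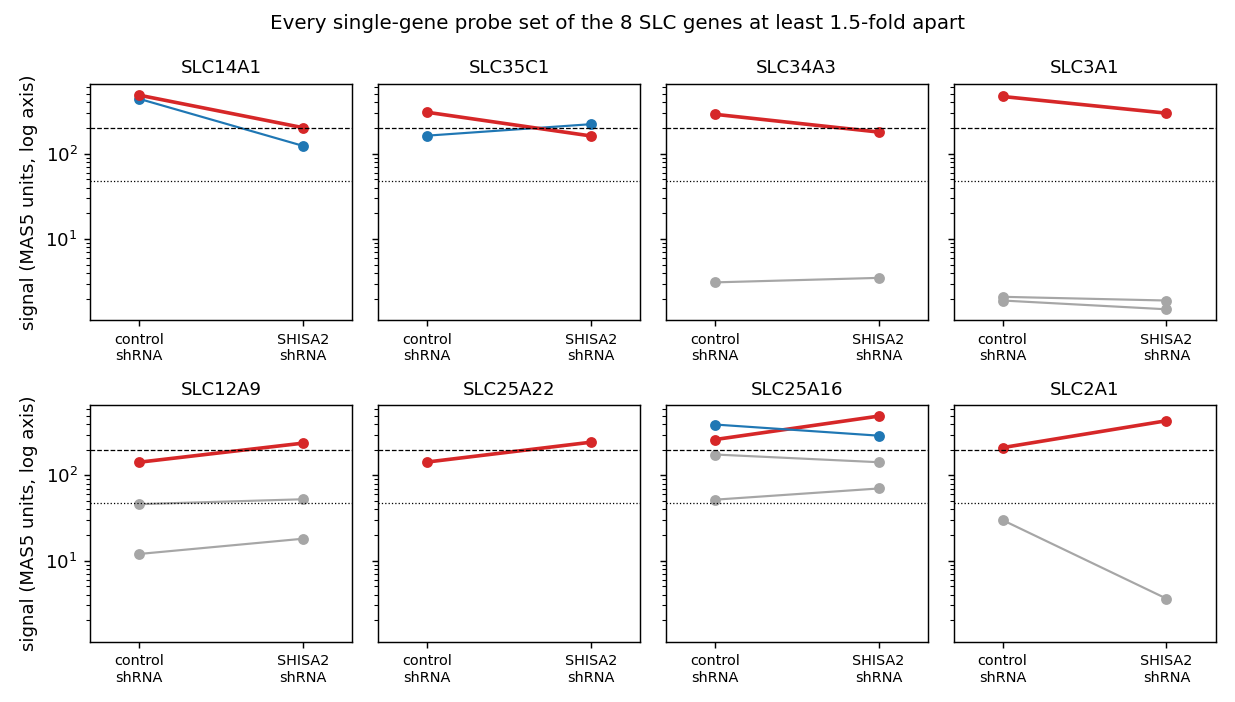
Signals (MAS5 units, log axis) of every single-gene probe set of the 8 SLC genes past 1.5-fold, with control shRNA on the left and SHISA2 shRNA on the right of each panel. Red marks the probe set that stands for the gene, blue another that reached 200 (dashed line) and grey one that did not (dotted line, the floor of 47.9), and the red and blue lines cross for SLC25A16 and SLC35C1 but not for SLC14A1.

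**Figure D4:**
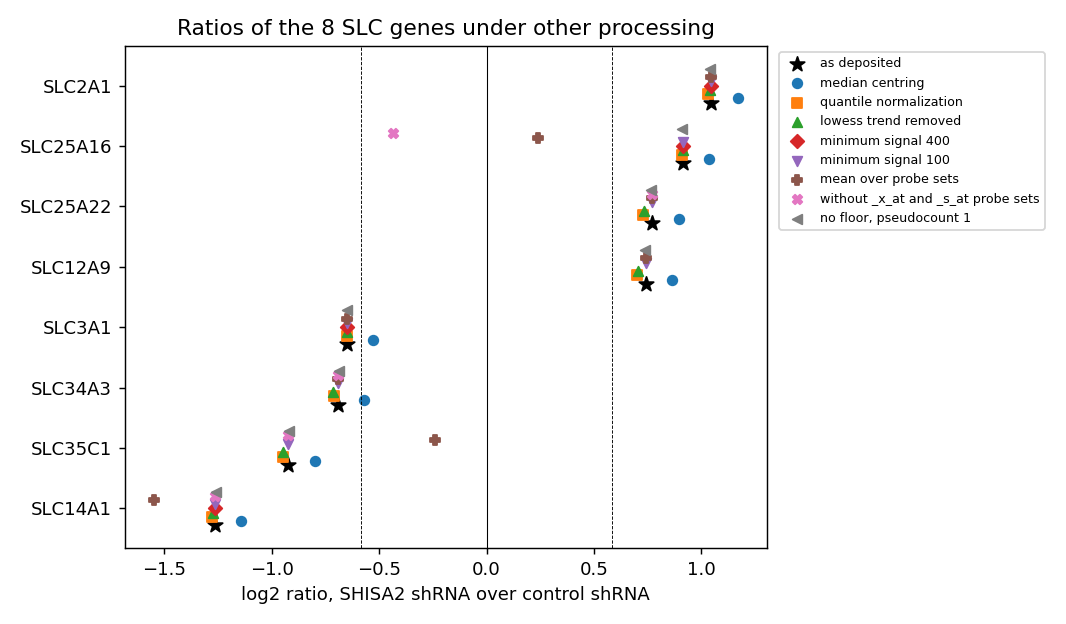
Log2 ratios (horizontal axis) of the 8 SLC genes past 1.5-fold as deposited (stars) and under up to 8 other ways of processing, with 1.5-fold as dashed lines. SLC14A1 ran from -1.55 to -1.14 and SLC2A1 from 1.03 to 1.17, while SLC25A16 ran from -0.43 to 1.04.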

How the data were processed

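RNA of PC-3 cells was measured on 2 arrays, 1 per group, grouped by sample title. The deposited values are probe-set intensities on a linear scale that the authors made with MAS5, as the submitters' processing notes list it without a version. The trimmed mean (2% from each end) was 500.1 in both arrays, so no further scaling was applied. Of 54675 probe sets, 62 were controls, 41091 of the others had 1 gene symbol and 1801 had several, which were left out. All 161 genes matched RefSeq (GRCh38.p14) by gene identifier, and none changed its symbol.

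The floor was set at 47.9, the median over non-control signals, and lower values were raised to it, and no SLC gene counted here had a representative signal there. A gene is represented by its brightest probe set, by mean log2 signal, among those whose higher signal reached 200. Past 1.5-fold is a size and not a test, and no p-value was computed. Ratios of dim genes scatter more widely. The procedure was tested on simulated data with less noise than the spread between probe sets given above. That test checks the calculation and does not show how often noise alone passes 1.5-fold. Python 3.11.15, pandas 2.3.3 and statsmodels 0.14.6 (lowess span 0.3) were used.

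Genes named are all those past 1.5-fold, in each transport class the 3 largest ratios and the brightest gene, genes next to the signal minimum and the 3 largest ratios of each gene list, and others were named after their values were seen. The genes and lists were chosen with earlier results of these data known, and families numbered 60 and above, except 66, were given a class after the files were read. The alternatives were 3 scalings, minimum signals of 100 and 400, the mean over probe sets, exclusion of the _x_at and _s_at kinds, and no floor with a pseudocount of 1.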

Additional observations from a re-analysis of the deposited data

Results flagged for a closer look

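One probe set outside the rule, annotated to both STMP1 and SLC13A4 and so not used for any gene, read 139.0 with control shRNA and 239.0 with SHISA2 shRNA, a log2 ratio of 0.78 (1.72-fold). It stood out as a higher signal in data that the comparisons above leave out. Of 26 probe sets annotated to several genes including an SLC gene, 13 reached 200, and which gene gave the signal cannot be told apart.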

How the results depend on the processing

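Over the 8 alternatives, 52 of 57 values of the genes past 1.5-fold kept their direction and stayed past it. Not all of these values were free to change. Under the other minimum signals these genes kept their probe set wherever they had a value. Averaging left genes with 1 probe set unchanged, and exclusion of the _x_at and _s_at kinds left genes represented by other kinds unchanged. The count is therefore not a measure of how stable the ratios are. Median centring raised the median of all genes to 0.12 and gave 7 SLC genes at least 1.5-fold higher and 2 lower (355 and 128 of all genes, against 197 and 248 as deposited). SLC38A12, SLC39A4 and SLC60A2 were added and SLC34A3 (-0.57) and SLC3A1 (-0.53) lost, and the median of the 161 genes was then 0.10. A minimum signal of 400 left 127 genes, 2 higher and 2 lower, and one of 100 gave 203 genes, 11 higher and 9 lower. The share of all genes is not given for these minimums, nor for the changes of probe sets below. That share was larger among dim genes, with 12.7% of all genes past 1.5-fold from 200 to under 400 and 1.89% at 1000 or more. Without _x_at and _s_at probe sets 127 genes were left, 1 of them higher and 3 lower; SLC2A1, SLC12A9 and SLC3A1 then had no value, and SLC25A16 turned to -0.43. Averaging the probe sets of a gene gave 3 higher and 3 lower, with SLC25A16 at 0.24 and SLC35C1 at -0.24. Quantile normalization, lowess and the pseudocount each gave 4 and 4. No paired analysis was possible because each group has 1 array. Without replicates, the spread between cultures is unknown, and signals near the floor limit the dimmer genes.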
